A study of Mus musculus with 2 samples.

Results

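Histone lysine methylation is set by methyltransferases and removed by demethylases. Here 51 genes for these enzymes, related proteins and subunits of the H3K4 complexes were followed. The cells were NE4C cells, labelled as mouse neural stem cells, treated with homocysteine thiolactone (HTL). The members were taken by gene symbol from a deposited table of 16803 genes, and all 51 were found. By role group they comprised 34 methyltransferase, other SET-domain or subunit genes and 17 genes of the demethylase groups, among them Jmjd6. Genes for polycomb repressive complex 2, Dot1l and Kdm2b were not included.

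RNA was sequenced from the established cell line NE4C, grown on poly-L-lysine. The study used it to follow gene expression under HTL, the reactive cyclic form of homocysteine, which binds to protein lysines. A normal culture (control) and an HTL treatment culture gave 1 library each. The labels name no allele, dose or duration.

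Methyl groups on histone lysines are read by other proteins, and their meaning depends on the residue. Methylation of H3K4 marks promoters and enhancers, H3K36 methylation marks transcribed gene bodies, and methylation of H3K9 and H4K20 accompanies heterochromatin. SET-domain enzymes place these marks from S-adenosylmethionine, while LSD1-type enzymes and JmjC-domain enzymes remove them by oxidation, and many of these genes are required in neural development.

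The table held 10350665 control reads and 9102076 HTL treatment reads, given as estimated counts per gene. A log2 ratio is the HTL treatment library against the control library after scaling to these totals, and its 95% interval covers counting error only. A gene was called when the exact binomial test gave a Benjamini-Hochberg adjusted p of at most 0.001 and the log2 ratio was at least 1 in size. With 1 library per condition no difference had a replicate check, so each test compares 2 libraries and not the conditions. The median log2 ratio of the 13442 genes tested was -0.14, and trimmed mean (TMM) scaling raised every log2 ratio by 0.13. Levels are compared between genes only in FPKM, which is scaled to transcript length. Of 8 neural stem cell markers, Nes was at 25.1 FPKM in the control and 24.1 after HTL, Sox2 at 34.7 and 12.6, and Vim at 78.5 and 38.8, whereas Pax6, Sox1 and Fabp7 were at 1.94 FPKM or less in both. Of the pluripotency genes, Pou5f1 was at 1870 and 2114 FPKM and Nanog at 23.8 and 14.8. The low Pax6, Sox1 and Fabp7 and the high Pou5f1 go against the label of neural stem cells, whereas Nes, Sox2, Msi1 and Vim were present. The summed level of the 8 neural stem cell markers was 197 FPKM in the control and 130 after HTL. Summed neuron markers were at 20.1 and 27.7 FPKM (mostly Tubb3, at 16.3 and 24.8, while Dcx was at 0.930 and 0.340 and Map2 at 1.88 and 1.28), astrocyte markers at 0.720 and 1.98 (Gfap at 0 reads after treatment), oligodendrocyte markers at 3.92 and 4.26, fibroblast markers at 1.22 and 1.76, and pluripotency markers, nearly all Pou5f1, at 1894 and 2129. The listed markers Zfp42 (pluripotency), Aqp4 (astrocytes) and Olig2 (oligodendrocytes) had no values here and are not in these sums. The part of these marker differences in the results was not tested.

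Most members had lower read shares in the HTL treatment library, and a few were far lower. The H3K36 methyltransferase gene Ash1l, the H3K4 demethylase gene Kdm5c, the H3K4 methyltransferase genes Kmt2c and Kmt2b and the H3K9 demethylase gene Kdm4b were called lower, and Smyd3 was called higher. The 5 genes called lower made up 9.80% of the members, beside 7.98% of all genes tested, and the single gene called higher made up 1.96%, beside 2.81%. Both shares lie near the background. After TMM scaling Ash1l and Kdm5c were still called lower and Smyd3 higher, which was 3.92% of members lower beside 5.95% of all genes, and 1.96% higher beside 4.11%. If a coefficient of variation of 0.2 between cultures was assumed, Ash1l and Kdm5c alone were called, and at 0.4 no member was.

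Differences smaller than the log2 cutoff were more frequent. By the adjusted p alone, 22 members were lower, or 43.1%, beside 24.1% of all genes tested, and 6 were higher, or 11.8%, beside 14.5%. After TMM scaling 19 were lower and 10 higher, beside 18.5% and 20.1% of all genes. If a coefficient of variation between cultures was assumed, 8 members in all passed the adjusted p at 0.1, 2 at 0.2 and 0 at 0.4. The members were well covered, and 46 of them had at least 500 reads over both libraries together. Among all genes with that many reads, 34.5% were lower and 25.1% higher by the adjusted p alone, against 45.7% and 10.9% of those 46 members. Among all genes that also had transcripts of at least 5000 bases, 54.5% were lower and 12.5% higher, against 68.2% and 4.55% of the 22 such members. The median log2 ratio over the 51 members was -0.24, with 36 members below 0 and 15 above. Of all 13442 genes tested 7893 were below 0. Of the 25 members with at least 5000 bases 20 were below 0, beside 1687 of all 2370 genes of that length. Of the 26 shorter members 16 were below 0, beside 6206 of all 11072 shorter genes.

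**Figure D1:**
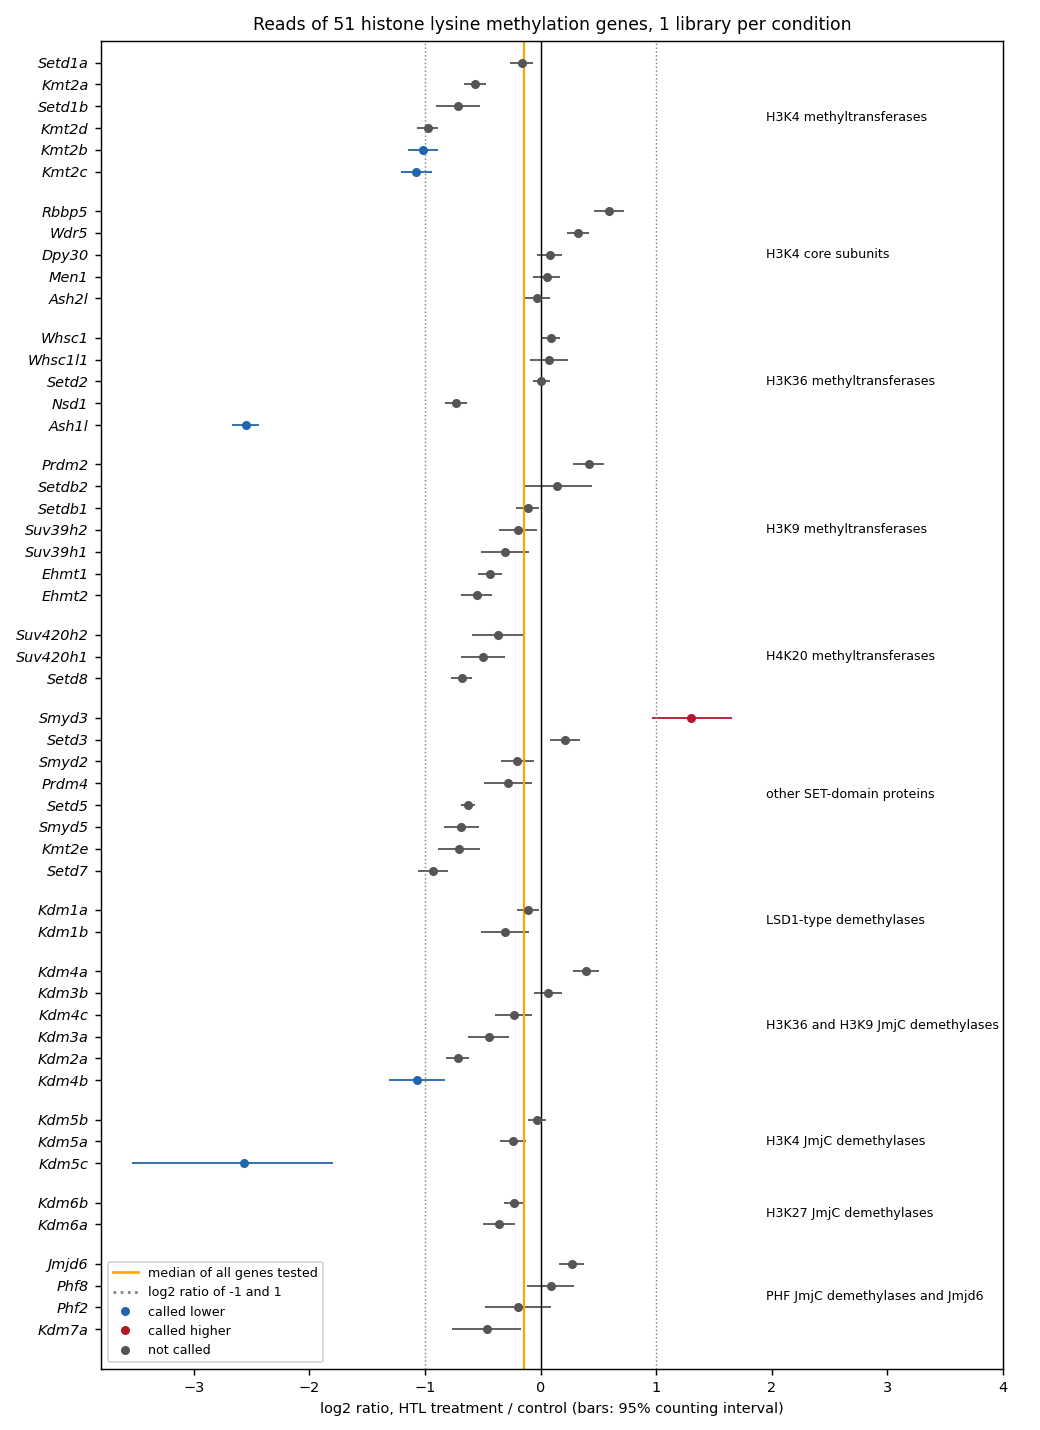
Log2 ratio of each of the 51 members (points) with its 95% counting interval (bars), grouped by role, with the median of all genes tested as an orange line at -0.14. Ash1l and Kdm5c lie beyond -2.5, Kmt2c, Kmt2b and Kdm4b lie just past the dotted line at -1, and Smyd3 is the member past the line at 1.

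The 6 called genes are placed in the NCBIM37 annotation (GENCODE vM1) as follows. Ash1l spans chr3:88769734-88883295 on the plus strand, and Kdm5c spans chrX:148667563-148709078 on the plus strand. Kmt2c, listed there as Mll3, spans chr5:24777612-25004601 on the minus strand, and Kmt2b, listed as Wbp7, spans chr7:31353877-31373745 on the minus strand. Kdm4b spans chr17:56465485-56542293 on the plus strand, and Smyd3 spans chr1:180882091-181448172 on the minus strand. The deposited reads are given per gene, with no split by exon or isoform. Exons of 11 members overlap another gene in antisense and exons of 1 member overlap one in sense, and none of the 6 called genes is among these 12.

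Promoter sequences, from 250 bases before to 50 bases after the annotated start, were at hand for Kmt2c and Kdm5c among the called genes, and they are shown because these 2 genes with lower reads have very different base composition at their starts. The sequences are from RefSeq on GRCm38.p6, at chr5:25498734-25499033 on the minus strand for Kmt2c and at chrX:152232977-152233276 on the plus strand for Kdm5c. Capitals mark matches on either strand to a CCAAT box (CCAAT), GC box (GGGCGG), ETS core (CCGGAAG), E-box (CACGTG) or YY1-type motif (AAGATGGCG), of which none contains another.
Kmt2c: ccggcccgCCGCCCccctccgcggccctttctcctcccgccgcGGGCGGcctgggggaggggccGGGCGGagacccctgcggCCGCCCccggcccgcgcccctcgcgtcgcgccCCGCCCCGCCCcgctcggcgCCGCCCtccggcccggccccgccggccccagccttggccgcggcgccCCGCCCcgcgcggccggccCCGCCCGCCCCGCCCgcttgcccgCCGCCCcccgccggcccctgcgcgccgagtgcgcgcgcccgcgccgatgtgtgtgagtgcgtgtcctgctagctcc
Kdm5c: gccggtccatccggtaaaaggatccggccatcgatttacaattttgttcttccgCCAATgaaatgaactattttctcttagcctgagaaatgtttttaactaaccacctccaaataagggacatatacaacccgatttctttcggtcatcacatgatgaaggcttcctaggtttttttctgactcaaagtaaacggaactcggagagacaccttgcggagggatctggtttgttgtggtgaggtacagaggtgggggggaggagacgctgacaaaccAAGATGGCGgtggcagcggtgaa
The Kmt2c promoter had 88.0% GC, 56 CpG and 12 GC box matches. The Kdm5c promoter had 47.0% GC, 13 CpG, 1 CCAAT match and 1 YY1-type match that lies close to its 3′ end.

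Promoters were matched for 36 of the 51 members, with 51 start sites in all. Their median GC content was 64.7%, beside 61.0% for promoters of genes tested and 52.7% for all 32851 promoters. A GC box match was held by 70.6% of member promoters, 62.9% of promoters of genes tested and 35.7% of all promoters. A CCAAT match was held by 41.2% of member promoters, 38.1% of promoters of genes tested and 37.4% of all. An ETS core was held by 9.80%, 16.6% and 8.86% in that order, and an E-box by 7.84%, 9.82% and 7.15%. The YY1-type motif was held by 9.80% of member promoters, which belong to Kdm5c, Phf8, Smyd5, Suv39h1 and Suv39h2, beside 2.86% of promoters of genes tested and 1.40% of all. These matches are descriptions of the letters in the window. The log2 ratios of the 5 genes with that motif were -2.57 for Kdm5c, -0.68 for Smyd5, -0.31 for Suv39h1, -0.20 for Suv39h2 and 0.0880 for Phf8. A link between motif and ratio was not tested.

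Most H3K4 methyltransferase genes had lower read shares after HTL. All 6 catalytic genes had log2 ratios below 0 and below the median of all genes tested, their own median was -0.85, and 5 of the 6 were lower by the adjusted p alone, beside 24.1% of all genes tested. These genes are long, with a median of 12654 bases, and of all genes of at least 5000 bases and 500 reads 54.5% were lower by that rule. Kmt2c, which encodes the MLL3 enzyme of enhancers, had 1554 reads in the control and 649 after HTL. Its level was 8.79 and 4.17 FPKM, a log2 ratio of -1.07 (-1.21 to -0.94; adjusted p 2.59e-60 by the exact binomial test). Kmt2b, a gene for an enzyme of CpG-rich promoters, had 1590 and 691 reads and 17.9 and 8.81 FPKM, with a log2 ratio of -1.02 (-1.15 to -0.89). Both calls ended under TMM scaling, at -0.94 for Kmt2c and -0.89 for Kmt2b.

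Kmt2d, the partner of Kmt2c that encodes MLL4, stood just outside the cutoff. It had 3473 reads in the control and 1551 after HTL, with 16.7 and 8.44 FPKM and a log2 ratio of -0.98 (-1.06 to -0.89). Setd1b was at 7.05 and 4.28 FPKM, with a log2 ratio of -0.71. Kmt2a, the gene for MLL1, was at 14.3 and 9.64 FPKM, with a log2 ratio of -0.57. Setd1a, which has the highest control level of the 6 enzymes, was at 29.0 and 25.8 FPKM and its log2 ratio of -0.16 (-0.27 to -0.0631) did not pass. The summed level of the 6 genes was 93.7 FPKM in the control and 61.2 after HTL.

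The subunits of the H3K4 complexes comprised 4 shared core subunits and menin, which belongs to the complexes of Kmt2a and Kmt2b. None was lower by the adjusted p, beside 24.1% of all genes, and 2 were higher, beside 14.5%, which for 5 genes is near the background. All 5 lay above the median of all genes tested. Rbbp5, a scaffold of the catalytic module, had 831 and 1100 reads, with 21.9 FPKM in the control and 33.0 after HTL. Its log2 ratio of 0.59 (0.46 to 0.72) was the nearest below the cutoff for higher genes. Wdr5, which joins the enzyme to the module, was at 55.5 and 69.2 FPKM with a log2 ratio of 0.32 (0.23 to 0.42), and with Rbbp5 it was higher by the adjusted p alone. Dpy30, the small subunit with the highest level of all 51 members, was at 197 and 207 FPKM, a log2 ratio of 0.0780 (-0.0323 to 0.19), and it passed the adjusted p after TMM scaling. Men1, the gene for menin, was at 44.9 and 47.3 FPKM. Ash2l was at 42.1 and 41.4 FPKM with a log2 ratio of -0.0313 (-0.14 to 0.0793), which turned to 0.0987 under TMM scaling.

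Among H3K36 methyltransferase genes, Ash1l stood apart. Ash1l, a trithorax-group enzyme that dimethylates H3K36, had 4702 reads in the control and 706 after HTL. Its level was 39.7 FPKM, the highest of the H3K36 enzymes, in the control and 6.76 after treatment. The log2 ratio of the reads was -2.55 (-2.67 to -2.44), or 5.85-fold lower, with an exact binomial adjusted p too small for the software to tell from 0. Nsd1, an H3K36 dimethyltransferase, was at 20.2 and 12.1 FPKM with a log2 ratio of -0.73 (-0.82 to -0.64) and was not called. Setd2, the main enzyme gene for H3K36 trimethylation, was at 35.0 and 35.1 FPKM, a log2 ratio of 0.00579 (-0.0693 to 0.0808). Whsc1 and Whsc1l1, the genes for NSD2 and NSD3, were at 38.8 and 41.5 FPKM and at 11.3 and 13.5 FPKM. After TMM scaling Setd2 and Whsc1 passed the adjusted p as higher, with log2 ratios of 0.14 and 0.22.

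No H3K9 methyltransferase gene was called, beside 7.98% of all genes called lower and 2.81% higher. By the adjusted p alone 2 of the 7 were lower and 1 was higher, near the 24.1% and 14.5% of all genes. Ehmt2 and Ehmt1 encode G9a and GLP, which form a heterodimer for H3K9 dimethylation. Ehmt2 was at 30.3 FPKM in the control and 20.5 after HTL, with a log2 ratio of -0.55 (-0.69 to -0.42), and Ehmt1 was at 35.3 and 25.9 FPKM, with -0.44 (-0.54 to -0.33). These 2 were the ones lower by the adjusted p alone. Suv39h1 and Suv39h2, the genes for the H3K9 trimethylation enzymes of pericentric heterochromatin, had log2 ratios of -0.31 (-0.51 to -0.0995) and -0.20 (-0.36 to -0.0282). Setdb1, which acts with Trim28 on retroelements and has the highest level of the group, was at 37.7 and 34.9 FPKM, and its log2 ratio of -0.11 turned to 0.0207 under TMM scaling. Setdb2 was at 6.02 and 6.70 FPKM. Prdm2 was higher by the adjusted p alone, at 10.3 and 12.9 FPKM with a log2 ratio of 0.42 (0.28 to 0.55).

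All 3 H4K20 methyltransferase genes had log2 ratios below the median of all genes tested. Setd8 encodes the monomethyltransferase needed for chromosome compaction, and it had 2927 reads and 106 FPKM in the control against 1604 reads and 65.7 FPKM after HTL. Its log2 ratio was -0.68 (-0.77 to -0.59). Suv420h1 and Suv420h2, which add the further methyl groups, had log2 ratios of -0.50 (-0.69 to -0.31) and -0.37 (-0.59 to -0.14). Setd8 and Suv420h1 passed the adjusted p alone as lower, beside 24.1% of all genes, and none of the 3 was called, beside 7.98%.

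Of the 8 other SET-domain genes, Smyd3 moved opposite to the 4 that were lower by the adjusted p alone, beside 24.1% of all genes tested. Smyd3, which encodes a mostly cytoplasmic lysine methyltransferase, had 105 reads and 2.68 FPKM in the control and 228 reads and 6.59 FPKM after HTL. It was 2.46-fold higher, with a log2 ratio of 1.30 (0.96 to 1.65; adjusted p 1.20e-14 by the exact binomial test). Setd7, a monomethyltransferase for H3K4 and for many other proteins, was the next outside the lower cutoff after Kmt2d, with 1580 and 728 reads, 20.5 and 10.7 FPKM, and a log2 ratio of -0.93 (-1.06 to -0.80). Setd5 had the most reads of all members, 5853 and 3335, with 86.4 and 55.9 FPKM and a log2 ratio of -0.63 (-0.69 to -0.56). Kmt2e, the gene for MLL5, was at 9.44 and 5.77 FPKM, and Smyd5 at 40.3 and 25.0 FPKM, with log2 ratios of -0.71 and -0.68. Setd3, Smyd2 and Prdm4 did not pass, with log2 ratios of 0.21, -0.20 and -0.28, but Setd3 passed the adjusted p after TMM scaling, at 0.34. Setd3 is best known as a methyltransferase of actin, and Smyd2 as one of p53 and other proteins.

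**Figure D2:**
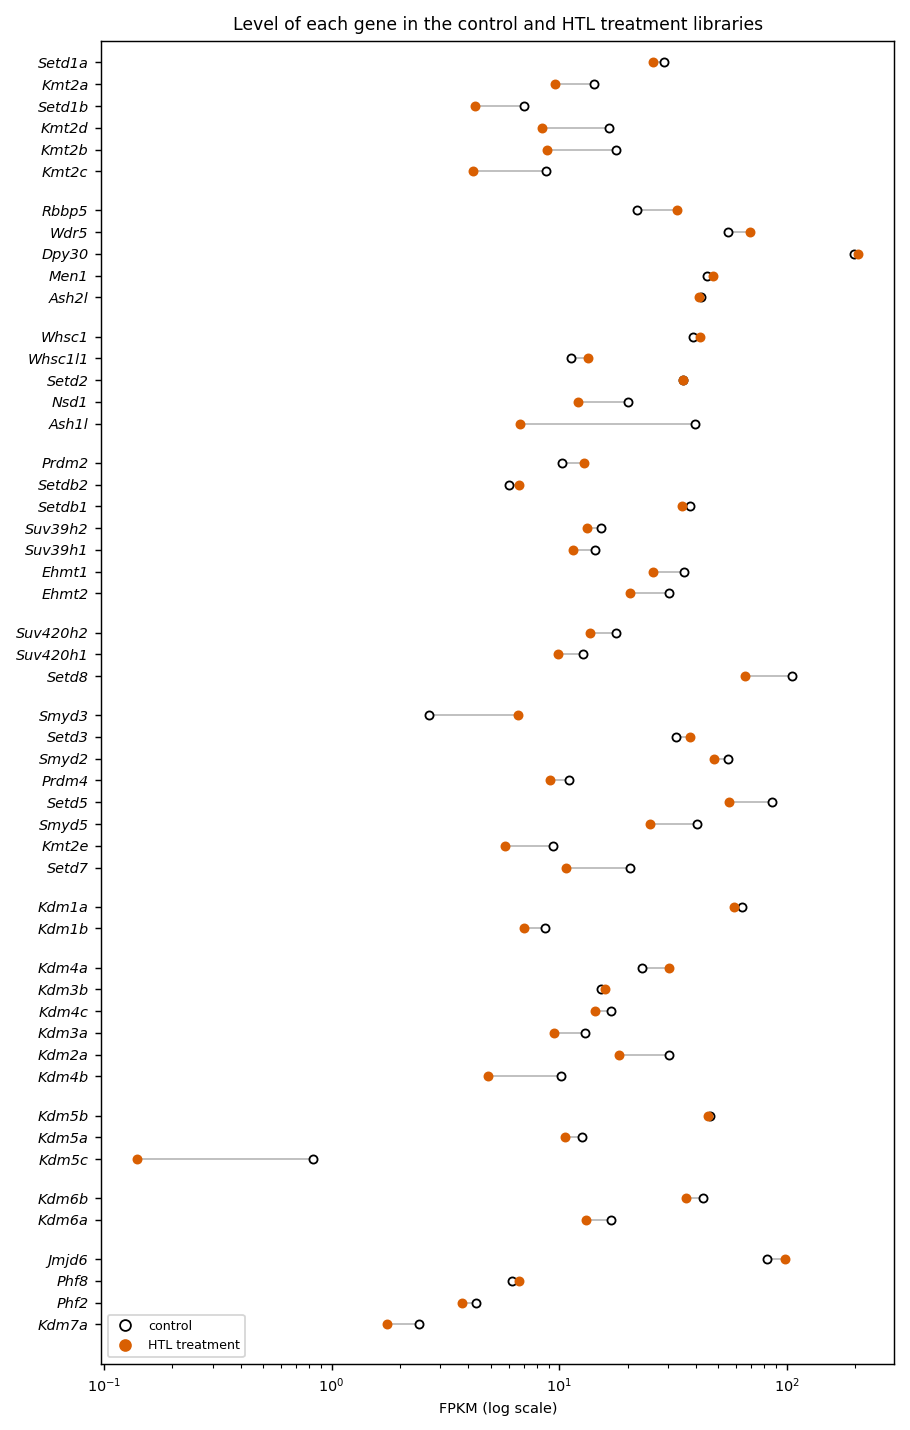
FPKM (log scale) of each member in the control library (open circles) and the HTL treatment library (filled circles), in the same order by role. Dpy30 is highest at 197 and 207 FPKM, Kdm5c lowest at 0.830 and 0.140, and the widest gaps are those of Ash1l, Kdm5c and Smyd3.

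Among demethylases, the LSD1-type genes lay near the median of all genes. Kdm1a encodes LSD1, which removes methyl groups from H3K4 within the CoREST complex. It was at 63.6 FPKM in the control and 59.0 after HTL, with a log2 ratio of -0.11 (-0.20 to -0.0104) that turned to 0.0247 under TMM scaling. Kdm1b was at 8.67 and 6.99 FPKM, a log2 ratio of -0.31 (-0.52 to -0.0987). Neither passed the adjusted p.

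The JmjC demethylase genes for H3K36 and H3K9 spread from Kdm4b to Kdm4a, which belong to the same family. Kdm4b, whose product removes H3K9 trimethylation, had 493 and 207 reads and 10.2 and 4.88 FPKM, and its log2 ratio was -1.06 (-1.31 to -0.83; adjusted p 2.06e-19 by the exact binomial test). Under TMM scaling it was -0.94 and no longer called. Kdm4a had 1119 reads in the control and 1292 after HTL, or 23.2 and 30.6 FPKM, and its log2 ratio of 0.39 (0.28 to 0.51) passed the adjusted p alone. Kdm2a, the gene for a CpG island-binding H3K36 demethylase with the highest control level of the group, was at 30.3 and 18.4 FPKM with a log2 ratio of -0.72 (-0.82 to -0.62). Kdm3a, the H3K9 demethylase gene that responds to hypoxia, was at 12.9 and 9.46 FPKM with -0.45 (-0.63 to -0.27). Kdm4c and Kdm3b had log2 ratios of -0.23 and 0.0629, neither of which passed.

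Among the H3K4 demethylase genes of the KDM5 family, Kdm5c had few reads in either library. It had 97 reads and 0.830 FPKM in the control and 14 reads and 0.140 FPKM after HTL. The log2 ratio was -2.57 (-3.53 to -1.79; adjusted p 1.40e-13 by the exact binomial test), which corresponds to 5.93-fold lower with a wide interval. With 1 added to each FPKM the log2 ratio was -0.68, and Kdm5c was no longer called. The deposited table gives Kdm5c a length of 11030 bases, while its longest transcript in GENCODE vM1 has 6449, so the per-length level rests on the longer model. Kdm5d, the related gene on the Y chromosome, had 178 and 106 reads, and the sum of both genes had 275 reads against 120 after HTL, a log2 ratio of -1.01 (-1.33 to -0.70). Kdm5b, the family member with the highest level, was at 46.2 and 45.1 FPKM, and its log2 ratio of -0.0302 turned to 0.0998 under TMM scaling. Kdm5a was at 12.6 and 10.6 FPKM with a log2 ratio of -0.24 (-0.35 to -0.12), and it passed the adjusted p alone with library totals but not after TMM scaling, at -0.11. The summed level of the 3 genes was 59.6 FPKM in the control and 55.9 after HTL, and Kdm5c contributed 1.39% of the former.

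The H3K27 demethylase genes Kdm6b and Kdm6a passed the adjusted p alone as lower with small differences, beside 24.1% of all genes, and neither passed after TMM scaling, beside 18.5%. Kdm6b, the gene for the inducible enzyme JMJD3, was at 42.8 and 36.3 FPKM, with a log2 ratio of -0.23 (-0.31 to -0.15). Kdm6a, the X-linked gene for UTX, was at 16.9 and 13.2 FPKM, with -0.36 (-0.50 to -0.22). In the last group, Jmjd6, which encodes a lysyl hydroxylase of splicing factors with a JmjC domain, was at 81.8 FPKM in the control and 98.2 after HTL, with a log2 ratio of 0.27 (0.16 to 0.37). Kdm7a had the ratio of largest size in this group, at 2.42 and 1.75 FPKM and -0.47 (-0.77 to -0.17). Phf8 and Phf2, which encode H3K9 demethylases with a PHD finger, had log2 ratios of 0.0880 and -0.20, and of these 4 genes Jmjd6 was the one that passed the adjusted p.

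Genes of the same family could be set against each other without regard to the scaling of the libraries. Within 15 families there were 25 pairs, and the difference of the log2 ratios was at least 1 with an interval that left out 0 in 5 of them. Kdm5b lay 2.54 (1.76 to 3.50) above Kdm5c, and Kdm5a lay 2.33 (1.54 to 3.30) above it. Both differences rest on 14 reads of Kdm5c after HTL, and summed with Kdm5d its log2 ratio was -1.01. With 1 added to each FPKM, Kdm5c was at -0.68, Kdm5b at -0.0325 and Kdm5a at -0.22, less than 1 apart. Smyd3 lay 1.98 (1.61 to 2.37) above Smyd5 and 1.50 (1.13 to 1.88) above Smyd2. Kdm4a lay 1.46 (1.19 to 1.73) above Kdm4b. The pairs were not chosen by the differences, but the families include the called genes. How often unrelated genes differ by as much was not counted. The log2 ratios of all genes tested had a standard deviation of 0.85, and those of genes with at least 500 reads 0.58.

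Smaller differences within families had intervals that left out 0 in 10 further pairs. Whsc1 lay 0.82 (0.70 to 0.94) above Nsd1, and Whsc1l1 lay 0.80 (0.61 to 0.99) above it, so that Nsd1 made up 28.7% of the summed FPKM of the NSD family in the control and 18.1% after HTL. Setd1a lay 0.55 (0.33 to 0.77) above Setd1b, and Kmt2a lay 0.45 (0.29 to 0.61) above Kmt2b. In the KDM4 family, the share of Kdm4a went from 46.2% to 61.4% and that of Kdm4b from 20.4% to 9.80%. The other 10 pairs had intervals that included 0. For Kmt2c and Kmt2d, the difference was 0.0964 (-0.0630 to 0.26), and for Ehmt1 and Ehmt2 it was 0.12 (-0.0557 to 0.29).

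**Figure D3:**
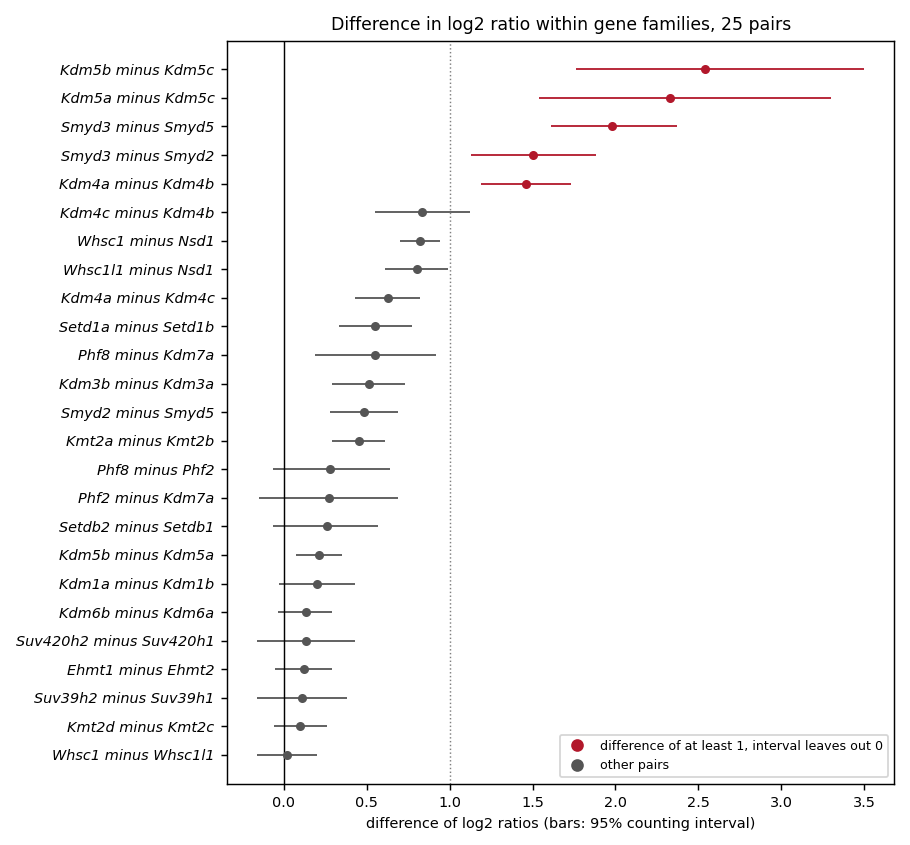
Difference of the log2 ratios (HTL treatment against control) within each of 25 pairs of related genes, as points with 95% counting intervals. The 5 pairs past the dotted line at 1, from 1.46 to 2.54, all involve Kdm5c, Smyd3 or Kdm4b, and 10 intervals cross 0.

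Members have long transcripts, and log2 ratios in these libraries were lower for long transcripts. With all genes tested divided by transcript length into 10 equal bins, 34 of the 51 members lay in the longest 3 bins and 21 in the longest bin, which holds transcripts of at least 6190 bases. The median log2 ratio of all genes went from 0.14 over the shortest transcripts to -0.38 over the longest, and the share called lower went from 2.46% to 15.2%. In the longest bin the 21 members had a median of -0.63, with 13 of them below the median of that bin, and 4 were called lower, or 19.0%. Set against the median of their own length bin, 28 members lay below it and 23 above. The difference from the median of that bin was -2.17 for Ash1l (11293 bases), -2.19 for Kdm5c, -0.70 for Kmt2c (16820 bases) and -0.64 for Kmt2b (8484 bases). Prdm2 (8517 bases), Setd2 (8350 bases), Kdm3b (7112 bases), Whsc1 (6995 bases) and Phf8 (6295 bases) lay in the same bin with ratios above 0. The part of transcript length in the differences was not tested.

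**Figure D4:**
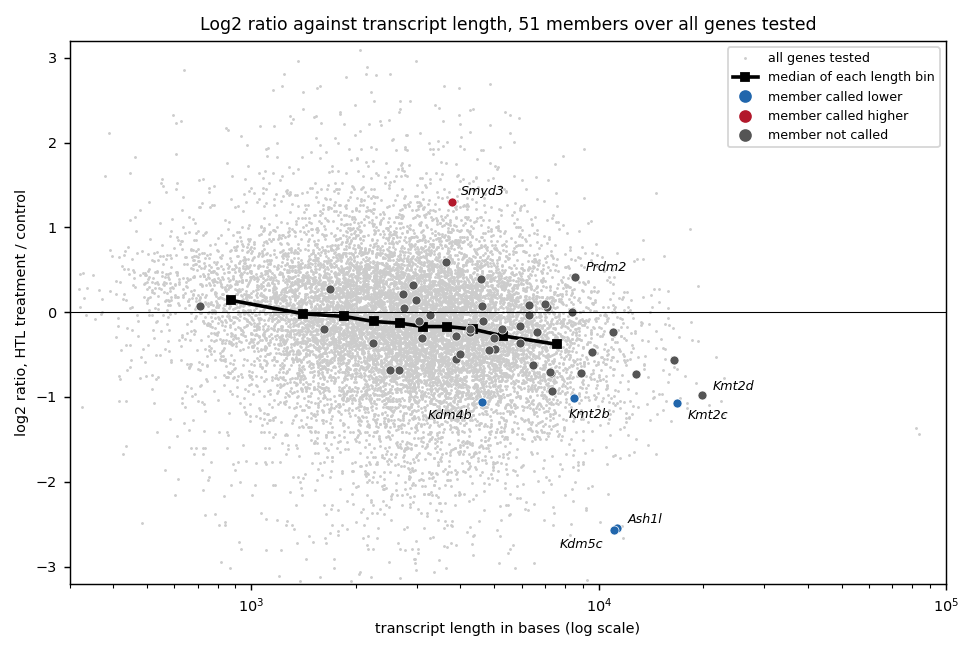
Log2 ratio against transcript length in bases (log scale), with all genes tested in grey, the median of each length bin as black squares and the 51 members as larger points. The squares go from 0.14 to -0.38, the members are mostly long, and Ash1l and Kdm5c lie far below the median of their length bin, though not below all genes in it (genes outside the plotted range are not drawn).

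Other genes of these pathways were counted in 6 further lists. Among 14 tested genes for other SET and PRDM proteins, 2 were called lower (14.3%, beside 7.98% of all genes) and 0 higher, with a median log2 ratio of -0.35. By the adjusted p alone 4 were lower (28.6%, beside 24.1%) and 0 higher. Prdm10, a zinc finger factor gene, had 171 reads against 73 after HTL, a log2 ratio of -1.04 (-1.46 to -0.64), and Prdm15 had 199 and 87 reads and a ratio at the cutoff (-1.39 to -0.64). Neither was called after TMM scaling. Among 13 other JmjC genes 0 were called, beside 7.98% of all genes called lower and 2.81% higher. By the adjusted p alone 3 were lower (23.1%, beside 24.1%) and 0 higher, and the median log2 ratio was -0.28. Jmjd1c, chosen here after its values were seen as the relative of Kdm3a and Kdm3b, had 4229 reads against 2181 after HTL, a log2 ratio of -0.77.

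Partners of the H3K4 enzymes numbered 10, of which 1 was called lower, beside 7.98% of all genes. By the adjusted p alone 5 were lower, beside 24.1% of all genes, and 1 was higher, which was Bod1 at 0.44, and the median was -0.48. The called gene was Bod1l, whose product binds the SETD1A complex at replication forks, with 2422 and 706 reads, 22.1 and 7.29 FPKM and a log2 ratio of -1.59 (-1.72 to -1.47). Of 11 H3K9 partners, 1 was called lower (9.09%, beside 7.98% of all genes). By the adjusted p alone 7 were lower, or 63.6% beside 24.1%, and 1 was higher (Daxx at 0.40). All 11 had at least 1134 reads, and of all genes with at least 500 reads 34.5% were lower and 25.1% higher. After TMM scaling 4 were lower and 2 higher, beside 18.5% and 20.1% of all genes. The median log2 ratio was -0.28. The called gene was Atrx, a chromatin remodeller gene, with 2397 reads against 1016 after HTL, a log2 ratio of -1.05 (-1.16 to -0.95), and after TMM scaling it was at -0.92 and not called. CoREST partners (11 genes) and arginine methyltransferases (9 genes) had 0 calls each, beside 7.98% of all genes called lower and 2.81% higher. Their medians were -0.34 and -0.16. By the adjusted p alone 3 CoREST partners were lower (27.3%, beside 24.1%) and 2 higher (18.2%, beside 14.5%), Hdac1 at 0.60 and Hdac2 at 0.32. Of the arginine methyltransferases 3 were lower (33.3%, beside 24.1%) and 0 higher. The medians of all 6 lists lay below that of all genes tested.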

How the data were processed

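RNA of NE4C cells was sequenced in 1 control and 1 HTL treatment library, grouped by title. Per the labels, a TruSeq kit and BGISEQ protocols were used and the build was mm9. Per the study's methods, the authors estimated reads per gene with RSEM. Mapper, versions, annotation and use of strand are not given in the sources used here. The deposited estimated counts are not normalized (21.8% of control and 20.2% of HTL treatment values are fractional). FPKM in the deposited table is per transcript length (in bases) and library size. The authors' deposited log2 ratio, p-value and FDR were not used.

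Counts were rounded, and 13442 genes with at least 10 reads over both libraries were tested (3361 were left out) by the two-sided exact binomial test against library totals with Benjamini-Hochberg adjustment. For log2 ratios 0.5 read was added, and intervals are exact (95%). Without molecular identifiers PCR copies are not independent, so tests and intervals cover counting error only. Quasi-likelihood fits need replicates. Calls used the cutoffs of the study's methods. Family differences used the exact conditional interval of the odds ratio. Named were the called members, the highest and the most different member of each role, those nearest the cutoff, pairs apart and the largest called change of each further list. Members and lists were chosen with earlier results of these data known, and the promoter motifs after values had been seen. Alternatives were other scalings, filters, cutoffs, added reads, FPKM + 1, length bins, summed copies and assumed variation. The tests were checked on simulated counts drawn with counting error only, so the check does not cover variation between cultures. Software was Python 3.11.15, scipy 1.17.1, pandas 2.3.3, matplotlib 3.10.9, R 4.3.3 and edgeR 4.0.16. Gene positions are from NCBIM37, promoters from GRCm38.p6.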

Additional observations from a re-analysis of the deposited data

How the results depend on the processing

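No paired analysis was possible because only 1 library per condition exists, and none could be left out. Against 5 members called lower and 1 higher, scaling by TMM, median of ratios or upper quartile and the comparison within length bins each gave 2 lower and 1 higher. These were Ash1l and Kdm5c lower and Smyd3 higher. The ratio of FPKM + 1 left Ash1l, 1 lower, with Kmt2c at -0.92, Kmt2b at -0.94, Kdm4b at -0.93 and Kdm5c at -0.68. With no log2 cutoff 22 were lower and 6 higher, which became 19 and 10 with TMM, 18 and 10 with median of ratios and 20 and 8 with upper quartile scaling. Kdm5a and Kdm6b were lost as lower under all 3 scalings, Kdm6a under TMM and median of ratios and Kdm3a under median of ratios. With a log2 cutoff of 0.5 there were 16 lower and 2 higher. At a biological coefficient of variation set to 0.1, 5 were lower and 1 higher, at 0.2, 2 lower (Ash1l and Kdm5c) and 0 higher, and at 0.4, 0 in both directions. Without the log2 cutoff these settings left 8, 2 and 0 members in all. No filter, a 50-read minimum mean, 5 added reads, an adjusted p of 0.05, summed near copies and, added after the data were seen, summed related genes left the counts at 5 and 1. The median over members lay below 0 under the 8 alternatives that change any ratio. Pairs apart went from 5 to 3 with FPKM + 1 and to 12 with a difference of at least 0.5.

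Of the 16 alternatives, 8 can change a log2 ratio at all. Under these, direction turned for 10 members at least once, while 27 stayed below 0 and 14 above 0. TMM scaling put Ash2l at 0.0987, Kdm1a at 0.0247, Kdm5b at 0.0998 and Setdb1 at 0.0207. Median of ratios scaling put them at 0.11, 0.0311, 0.11 and 0.0271, and upper quartile scaling put Ash2l at 0.0621 and Kdm5b at 0.0632. Relative to their length bin, Ash2l stood at 0.14, Kdm1a at 0.0643, Kdm5a at 0.14, Kdm5b at 0.35, Kdm6b at 0.14, Phf2 at 0.0851, Setd1a at 0.12, Setdb1 at 0.0921, Suv39h2 at 0.00635 and Dpy30 at -0.0592. Depth limits Kdm5c most, which had 14 reads in the HTL treatment library, and 4 other members had under 500 reads over both libraries. The spread between cultures is unknown here.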

Other observations

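The deposited FPKM ratio and the count ratio were nearly equal for most members after the median offset of all genes was removed, and 2 members differed by at least 0.1 on the log2 scale. Suv420h1 had a log2 FPKM ratio of -0.36 and a log2 count ratio of -0.50. Whsc1l1 had a log2 FPKM ratio of 0.26 and a log2 count ratio of 0.0713. Reads were fractional for 14 of the 51 members. An unnamed row related to Kdm6a had 39 reads in the control and 4 after HTL, and summed with it and with Uty the log2 ratio of Kdm6a was -0.40 (-0.54 to -0.26). A read-through row of Setdb2 had 25 and 12 reads, and with it Setdb2 had a log2 ratio of 0.0573 (-0.23 to 0.35). The deposited length of Smyd3 was 3769 bases, whereas its longest transcript in GENCODE vM1 has 6871.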
